A study of Homo sapiens with 12 samples.

Results

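The ligands, receptors and SMAD proteins of the TGF-beta pathway were examined as 10 genes, TGFB1, TGFB2, TGFBI, TGFBR1, TGFBR2, TGFBR3, SMAD2, SMAD3, SMAD4 and LTBP1. Every probe whose gene name in the deposited table was one of these 10 was taken, which gave 15 probes of 47228 on the array. Of these, 8 probes of 7 genes were detected in at least 2 of the 12 arrays and were tested, among 24207 probes tested in all.

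RNA came from MIA PaCa-2 and Capan-1, established human pancreatic ductal adenocarcinoma (PDAC) cell lines, the first from a primary tumor and the second from a liver metastasis. Each line expressed a scrambled control hairpin (shCtrl) or 1 of 2 hairpins against focal adhesion kinase (FAK, encoded by PTK2), called sh1209 and sh1319, from a doxycycline-inducible lentiviral PLKO.1 vector, so that there were 6 groups with 2 arrays each. Puromycin selection was at 3.5 ug/ml (MIA PaCa-2) or 1.5 ug/ml (Capan-1), and all groups, the controls included, received 50 ng/ml doxycycline for 96 hours before 500 ng of RNA was hybridised to an Illumina HumanHT-12 array. The Capan-1 labels spell 1 hairpin as shFAK1319, which was read as sh1319, and nothing in the labels tells separate cultures from repeat arrays of a single culture, so that p-values measure only the spread between arrays.

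The arrays had median intensities of 87.7 to 97.0 and detected 16259 to 19814 probes, where detection is a p-value under 0.05 against the negative controls. The epithelial markers KRT8, KRT18, KRT19, KRT7, EPCAM and CDH1 were detected on all 6 Capan-1 arrays. KRT8 and KRT18 were also detected on all 6 MIA PaCa-2 arrays and KRT19 on 4. EPCAM and KRT7 were detected there on 2 of 6 and CDH1 on none. The mesenchymal filament VIM had a mean log2 intensity of 13.20 there on probe 830593, against 5.88 for Capan-1. Other mesenchymal markers did not follow VIM. CDH2 was detected on all 6 Capan-1 arrays and on no MIA PaCa-2 array. SPARC was detected on 1 array of each line and ZEB1 on none. FAK knock down was measured by the bright PTK2 probe, which was left at 21.1% of shCtrl by sh1209 and 17.9% by sh1319 in MIA PaCa-2, and at 65.4% and 29.2% in Capan-1. The dim second PTK2 probe did not pass the test in any of these 4 pairs.

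TGF-beta is secreted in a latent complex that LTBP1 tethers to the extracellular matrix. Once released, the ligands TGFB1 and TGFB2 bind the type II receptor TGFBR2, a serine-threonine kinase that recruits and phosphorylates the type I receptor TGFBR1, while the co-receptor TGFBR3 (betaglycan) captures ligand, TGFB2 above all, and presents it to TGFBR2. TGFBR1 phosphorylates SMAD2 and SMAD3, which join SMAD4 and enter the nucleus to regulate transcription, and TGFBI is a secreted matrix protein named for its induction by TGF-beta. In PDAC the pathway restrains growth in early lesions and is often lost through SMAD4 or TGFBR2, and Capan-1 is known to carry an inactivated SMAD4 gene.

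The promoters of TGFBR3 and TGFBR2 are shown because these receptors changed most and in opposite directions in MIA PaCa-2. Each run holds the 250 bases before a RefSeq transcript start in GRCh38.p14, read 5′ to 3′ on the gene's strand, and capitals mark the GC box GGGCGG on either strand, the sequence bound by SP1. The TGFBR3 run lies at chr1:91886152-91886401 on the minus strand and the TGFBR2 run at chr3:30606106-30606355 on the plus strand.
TGFBR3: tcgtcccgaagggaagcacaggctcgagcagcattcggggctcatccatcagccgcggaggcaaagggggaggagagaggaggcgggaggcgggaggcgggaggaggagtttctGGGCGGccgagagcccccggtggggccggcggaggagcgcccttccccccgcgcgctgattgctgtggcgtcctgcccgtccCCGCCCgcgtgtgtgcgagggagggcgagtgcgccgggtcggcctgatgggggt
TGFBR2: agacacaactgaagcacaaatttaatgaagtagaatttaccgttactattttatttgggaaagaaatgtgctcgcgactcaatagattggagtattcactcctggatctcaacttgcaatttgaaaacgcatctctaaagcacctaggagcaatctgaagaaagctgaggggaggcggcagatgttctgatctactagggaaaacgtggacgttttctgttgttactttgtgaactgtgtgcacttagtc
The TGFBR3 run was 73.6% G and C and held 2 GC boxes, and the TGFBR2 run was 40.8% G and C and held 0, whereas 42.64% of 35116 promoter runs of the same length held at least 1. Neither run held the AP-1 site TGANTCA, found in 6.573% of all runs on either strand, or the SMAD box CAGAC, found in 38% of them. Both genes have further transcript starts, and the probes do not tell which start was used. A second TGFBR2 run, at chr3:30606351-30606600, was 58.4% G and C and held 2 GC boxes, as many as the TGFBR3 run. The difference in GC boxes between the receptors thus depends on the start taken.

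TGFBR3 rose with both hairpins in MIA PaCa-2 and with sh1319 in Capan-1. In MIA PaCa-2 its deposited intensity was 127.9 and 133.7 on the shCtrl arrays, 385.5 and 448.1 with sh1209, and 1567.9 and 1682.9 with sh1319. In Capan-1 it was 251.1 and 258.2 with shCtrl, 239.1 and 344.8 with sh1209, and 519.3 and 724.9 with sh1319. The 3 groups of MIA PaCa-2 were thus separate and ordered, whereas in Capan-1 only sh1319 stood above shCtrl and the sh1209 arrays lay on both sides of it. After normalisation, TGFBR3 was 5.33-fold higher with sh1209 in MIA PaCa-2 (log2 change 2.41, SE 0.14, limma adjusted p = 3.78e-07) and 20.3-fold higher with sh1319 (log2 change 4.35, SE 0.14, limma adjusted p = 2.38e-09). In Capan-1 it was 2.60-fold higher with sh1319 (log2 change 1.38, SE 0.14, limma adjusted p = 0.000105), and the log2 change with sh1209 was -0.05, with a 95% interval of -0.35 to 0.26. In bulk RNA, more cells with the transcript and more transcript in each cell cannot be told apart.

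The TGFBR3 response differed between the hairpins and between the lines. The level with sh1319 exceeded that with sh1209 by 1.93 on the log2 scale in MIA PaCa-2 (limma adjusted p = 1.92e-06) and by 1.42 in Capan-1 (limma adjusted p = 5.80e-05). Averaged over the hairpins, the log2 change in MIA PaCa-2 was 3.38 and that in Capan-1 was 0.66, a difference of 2.71 (limma adjusted p = 1.22e-06 for the interaction). With shCtrl, TGFBR3 in MIA PaCa-2 was 2.70-fold under its Capan-1 level (log2 difference -1.43, limma adjusted p = 4.46e-06). The order of the group means was therefore MIA PaCa-2 sh1319 at 10.48, Capan-1 sh1319 at 8.94, MIA PaCa-2 sh1209 at 8.55, Capan-1 shCtrl at 7.57, Capan-1 sh1209 at 7.52 and MIA PaCa-2 shCtrl at 6.13 normalised log2 intensity, and of these neighbours only Capan-1 shCtrl and Capan-1 sh1209 overlapped. Without background correction the changes were smaller, 1.64 and 3.39 in MIA PaCa-2 and 1.11 for sh1319 in Capan-1, and all of them passed the test.

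Set beside PTK2, the group with the least FAK transcript left in each line was also the one with the most TGFBR3. The pair of sh1319 and shCtrl in MIA PaCa-2, with 17.9% of PTK2 left, had the TGFBR3 change of 4.35, and the pair of sh1209 and shCtrl in Capan-1, with 65.4% left, had the change of -0.05. The other pairs, with 21.1% and 29.2% left, lay between with 2.41 and 1.38. PTK2 itself did not differ between the hairpins in MIA PaCa-2 by the test (log2 difference -0.24, limma adjusted p = 0.173). Its change for sh1209 in Capan-1 passed the test as quantile-normalised (log2 change -0.61, limma adjusted p = 0.00362) but not under median scaling (log2 change -0.42, limma adjusted p = 0.233), and the part that the unequal knock down has in these differences was not tested.

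TGFBR2 fell below detection with both hairpins in MIA PaCa-2, and none of its tested probes was called against shCtrl in Capan-1. On its brighter probe, 5490070, the deposited intensity in MIA PaCa-2 was 143.6 and 137.4 with shCtrl, 84.5 and 89.1 with sh1209, and 87.2 and 87.6 with sh1319. In Capan-1 it was 762 and 785 with shCtrl, 636.6 and 870.5 with sh1209, and 893.9 and 1276.9 with sh1319. Both shCtrl arrays of MIA PaCa-2 were detected and all 4 FAK hairpin arrays were not, whereas every Capan-1 array was bright. Against the lowest detected signal of those arrays, TGFBR2 was at least 3.20-fold lower with sh1209 (limma adjusted p = 3.59e-07) and at least 3.12-fold lower with sh1319 (limma adjusted p = 2.02e-07). The second probe, 6560091, gave 123.5 and 122.5 with shCtrl, 89.6 and 90.2 with sh1209 and 91.5 and 93.8 with sh1319 in MIA PaCa-2, a decrease of at least 2.40-fold and at least 2.34-fold (limma adjusted p = 3.65e-05 and 1.80e-05). The p-values beside these bounds belong to the measured log2 changes, which take the undetected groups at values near the floor. Those changes, -2.04 and -2.09 on probe 5490070, were -0.81 and -0.85 without background correction and passed the test there too.

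In Capan-1 the log2 change of TGFBR2 on probe 5490070 was -0.29 with sh1209 (95% interval -0.54 to -0.03, limma adjusted p = 0.127) and 0.30 with sh1319 (95% interval 0.04 to 0.55, limma adjusted p = 0.124), and neither was called. Without background correction both were called, at -0.26 and 0.27. The sh1319 level exceeded the sh1209 level by 0.58 (limma adjusted p = 0.00748) and by 0.52 on probe 6560091 (limma adjusted p = 0.0469). Both calls were lost under median scaling, without sh1209 replicate 1 (0.55 and 0.33) and without sh1319 replicate 2 (0.47 and 0.38), and the second also without sh1319 replicate 1 (0.66), with no filter on dim probes, with the replicate number as a block and with the Capan-1 arrays fitted alone. The difference between the lines in the mean change with the hairpins was -2.07 on probe 5490070 (limma adjusted p = 2.70e-06) and -1.51 on probe 6560091 (limma adjusted p = 0.000236), and without background correction it was -0.84 and -0.55. These differences take the undetected MIA PaCa-2 groups at their measured values near the floor, so that their size is not exact. Before any knock down, TGFBR2 in MIA PaCa-2 was 9.35-fold under its Capan-1 level on probe 5490070 (log2 difference -3.22, limma adjusted p = 6.45e-10) and 8.43-fold under it on probe 6560091, so that each of the 3 Capan-1 groups lay above each MIA PaCa-2 group. The remaining TGFBR2 probe, 5310041, read 83.4 to 101.1, was detected on 1 array and was not tested.

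**Figure D1:**
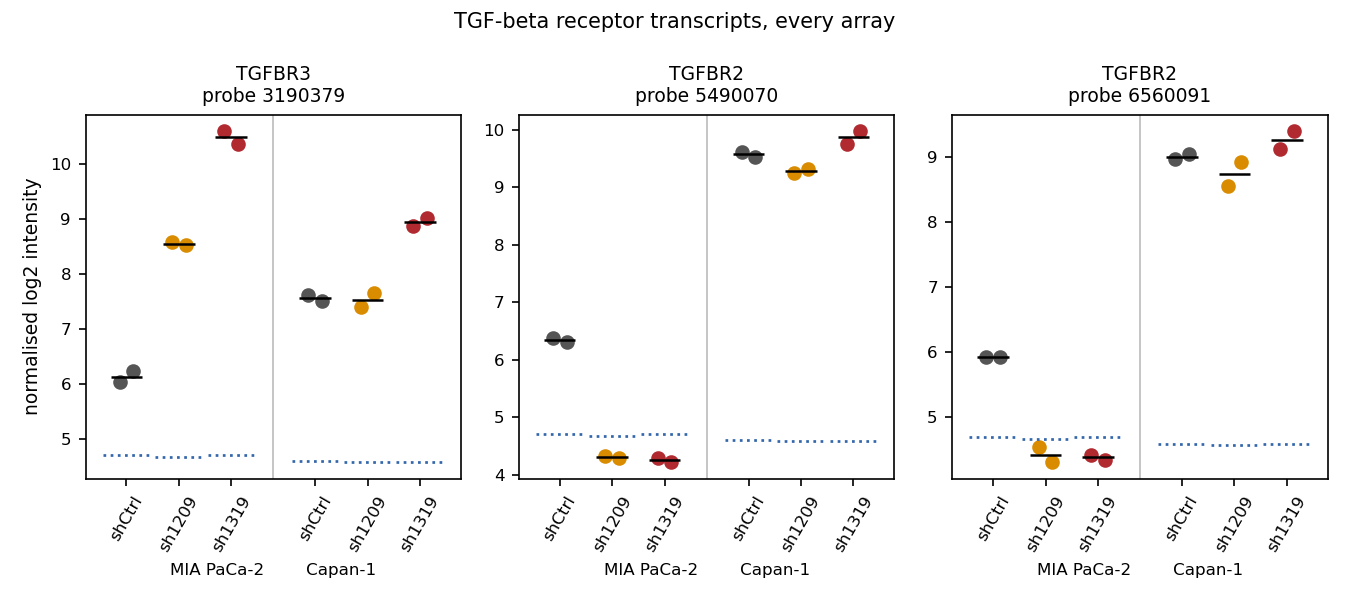
Normalised log2 intensity (y axis) of TGFBR3 and of both tested TGFBR2 probes on each of the 12 arrays, by cell line and hairpin (x axis). Points are single arrays, black lines are group means of 2 arrays and dotted lines mark the mean lowest detected signal of the group; TGFBR3 rises stepwise in MIA PaCa-2, from a mean of 6.13 to 10.48, while TGFBR2 drops under the dotted line there and has group means of 8.74 to 9.87 in Capan-1.

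The type I receptor TGFBR1 was not detected on any array, with intensities of 83.6 to 94.1 on its single probe. The array therefore gave a level for the type II receptor and the co-receptor but not for the kinase that phosphorylates SMAD2 and SMAD3.

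Among the SMADs, SMAD4 fell with sh1319 in MIA PaCa-2 and was near background in Capan-1. Its intensity in MIA PaCa-2 was 350.6 and 311.8 with shCtrl, 359.3 and 457.1 with sh1209 and 196.2 and 263.0 with sh1319. In Capan-1 it ranged from 96.3 to 115.7 over the 6 arrays, all of them detected. The sh1319 arrays were the lowest of MIA PaCa-2 and the sh1209 arrays the highest. SMAD4 was left at 54.4% of shCtrl by sh1319 (log2 change -0.88, SE 0.12, limma adjusted p = 0.000182), whereas with sh1209 the log2 change was 0.33 (95% interval 0.08 to 0.58, limma adjusted p = 0.0718), which was called without background correction, at 0.27, and with the stricter filter on dim probes. The difference of sh1319 from sh1209 was -1.21 on the log2 scale (limma adjusted p = 1.82e-05). With shCtrl, SMAD4 in MIA PaCa-2 was 10.4-fold over its Capan-1 level (log2 difference 3.37, limma adjusted p = 4.28e-10), a difference of 1.85 without background correction. The interaction with the cell line was -0.34 (limma adjusted p = 0.142) and did not pass the test.

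SMAD3 rose with sh1209 in Capan-1. Its intensity there was 186.8 and 213.9 with shCtrl, 259.0 and 335.3 with sh1209, and 226.8 and 301.0 with sh1319. The sh1209 arrays lay above both shCtrl arrays, by 0.53 on the log2 scale after normalisation (SE 0.14, limma adjusted p = 0.0254), and the call was lost when any 1 of these 4 arrays was left out (0.46 to 0.59). In MIA PaCa-2 SMAD3 read 166.3 and 190.6 with shCtrl, 149.4 and 166.1 with sh1209 and 179.6 and 209.2 with sh1319, and neither change, -0.33 and -0.01 on the log2 scale, passed the test, the first being called without shCtrl replicate 1 (-0.53). The interaction with the cell line was -0.55 (limma adjusted p = 0.0578) and was called without background correction (-0.36), with the stricter filter, and without MIA PaCa-2 shCtrl replicate 1 (-0.76). The lines did not differ in SMAD3 beyond the spread of the arrays with shCtrl (log2 difference -0.09, 95% interval -0.40 to 0.23).

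SMAD2, the other receptor-activated SMAD, was dim. Probe 3140376 read 92.1 to 110.2 and was detected on 11 arrays, and its log2 changes in the 4 pairs, -0.09 to 0.11, had 95% intervals that reached from -0.51 to 0.53 and did not pass the test. The other probes, 160243 and 4230661, were not detected on any array.

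**Figure D2:**
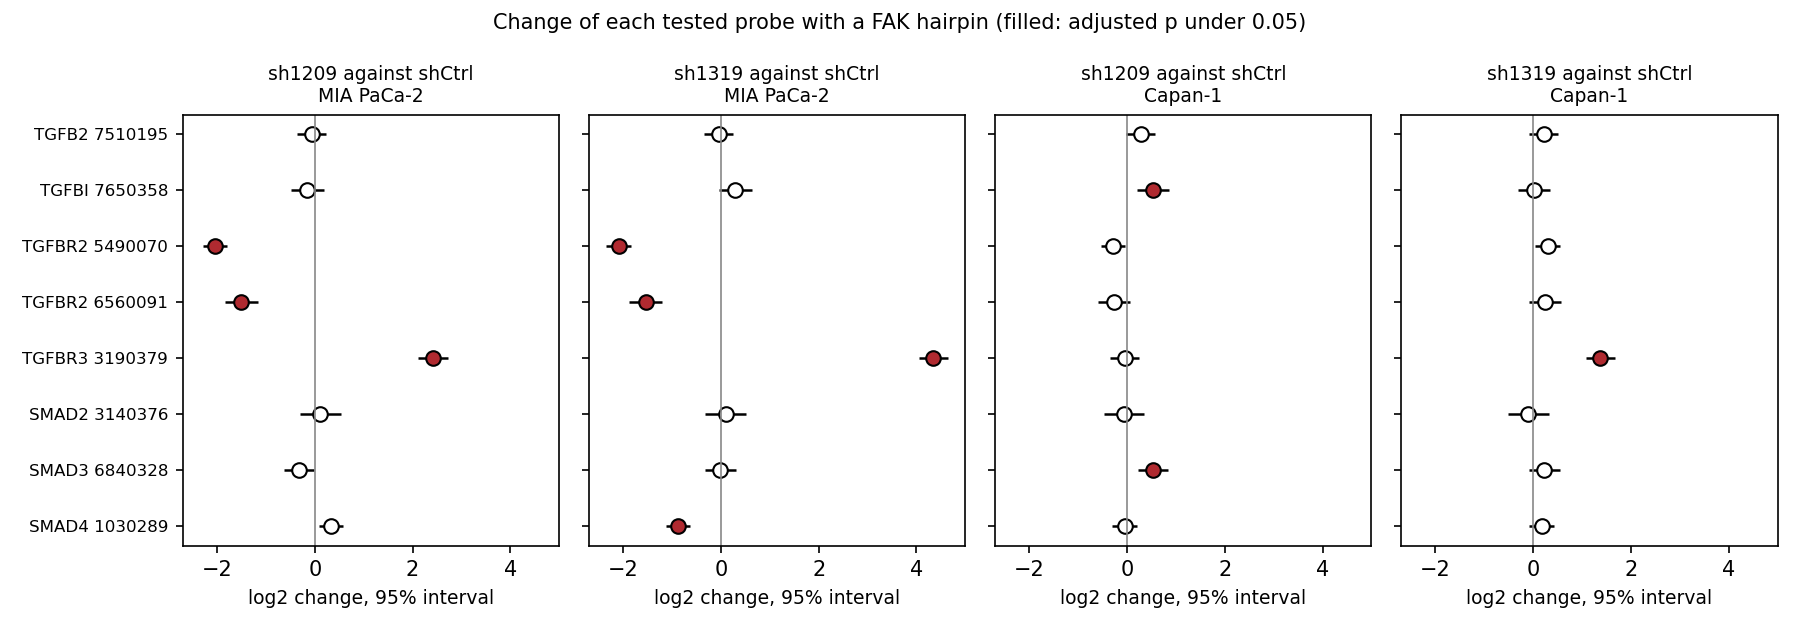
Log2 change (x axis) of each of the 8 tested probes (y axis) with a FAK hairpin against shCtrl of the same line, 1 panel for each of the 4 pairs. Points are limma estimates from 2 arrays a group, bars are 95% intervals and filled points passed an adjusted p of 0.05; the TGFBR2 and TGFBR3 points lie far from 0 on opposite sides in MIA PaCa-2, whereas for Capan-1 only TGFBR3 with sh1319 reaches a log2 change above 1.

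Of the ligands, TGFB2 was detected on all 6 Capan-1 arrays and on no MIA PaCa-2 array. Its intensity in Capan-1 was 126.4 and 118.7 with shCtrl, 133.7 and 161.3 with sh1209, and 135.1 and 161.2 with sh1319. In MIA PaCa-2 it ranged from 79.6 to 90.7. With shCtrl, TGFB2 was at least 1.96-fold higher in Capan-1. The measured log2 difference of MIA PaCa-2 from Capan-1 was -1.39 (limma adjusted p = 5.49e-06), with the undetected MIA PaCa-2 arrays taken near the floor. The probe passed the detection filter through the Capan-1 arrays alone, so that this p-value adds no separate support. The log2 changes with the hairpins in Capan-1, 0.28 and 0.22, did not pass the test (limma adjusted p = 0.219 and 0.376). Without Capan-1 shCtrl replicate 1 the change with sh1209 was 0.49 and was called. TGFB1 was not detected on any array, with intensities of 79.3 to 94.9. LTBP1, which anchors the latent complex, was not tested: probe 2370044 was not detected on any array and probe 4150446 on 1 array, Capan-1 sh1319 replicate 1, at 101.5.

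TGFBI, the matrix protein induced by TGF-beta, was the brighter in MIA PaCa-2 and rose with sh1209 in Capan-1. In Capan-1 its intensity was 105.9 and 104.2 with shCtrl, 118.1 and 147.8 with sh1209, and 112.8 and 115.7 with sh1319. In MIA PaCa-2 it was 164.4 and 159.4 with shCtrl, 152.8 and 156.5 with sh1209, and 178.4 and 227.1 with sh1319. The sh1209 arrays of Capan-1 lay above shCtrl by 0.53 on the log2 scale (SE 0.15, limma adjusted p = 0.0329), a call lost without background correction (0.19) and without shCtrl replicate 2 (0.38), sh1209 replicate 1 (0.63) or sh1209 replicate 2 (0.44). The sh1319 change in MIA PaCa-2, 0.30, did not pass the test (limma adjusted p = 0.198). The difference of sh1319 from sh1209 was 0.45 in MIA PaCa-2 (limma adjusted p = 0.0549) and, in the other direction, -0.51 in Capan-1 (limma adjusted p = 0.0524), and each was called with the stricter filter. With shCtrl, TGFBI in MIA PaCa-2 was 3.13-fold over its Capan-1 level (log2 difference 1.65, limma adjusted p = 3.07e-06), and 0.75 on the log2 scale without background correction.

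**Figure D3:**
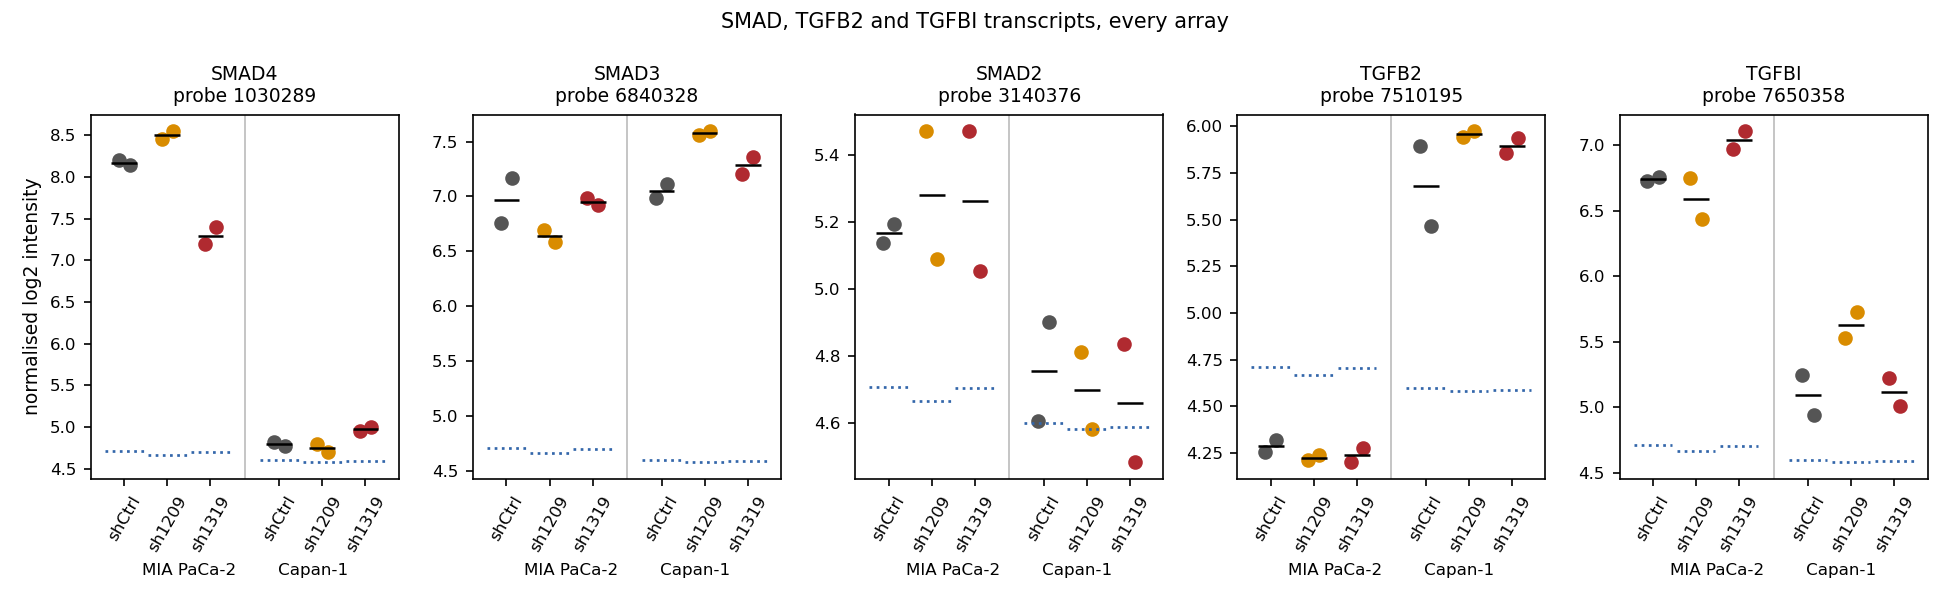
Normalised log2 intensity (y axis, a scale for each panel) of SMAD4, SMAD3, SMAD2, TGFB2 and TGFBI on each of the 12 arrays, by cell line and hairpin (x axis). Points are single arrays, black lines are group means of 2 arrays and dotted lines mark the mean lowest detected signal of the group; SMAD4 in MIA PaCa-2 is lowest with sh1319, at a mean of 7.29, and TGFB2 lies under the dotted line in MIA PaCa-2 and above it in Capan-1.

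Counted by probe, 3 of the 8 tested probes passed the test for sh1209 in MIA PaCa-2, against 18.0% of all probes tested, 4 for sh1319 in MIA PaCa-2 (24.3% of all), 2 for sh1209 in Capan-1 (16.8%) and 1 for sh1319 in Capan-1 (13.7%). With 2 TGFBR2 probes among the 8, these were 2, 3, 2 and 1 genes. In MIA PaCa-2, 1 probe was higher with each hairpin, TGFBR3, where 9.05% of all probes were higher with sh1209 and 12.2% with sh1319, and 2 and 3 were lower, where 8.99% and 12.1% of all were. In Capan-1, 2 probes were higher with sh1209 and 1 with sh1319, where 8.14% and 6.95% of all probes were higher, and 0 were lower, where 8.69% and 6.77% of all were.

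The combined comparison, the mean of the 4 pairs, called 3 of the 8 probes, against 25.2% of all. TGFBR3 was higher by 2.02 on the log2 scale, where 12.5% of all probes were higher, and TGFBR2 was lower, with log2 changes of -1.03 on probe 5490070 and -0.76 on probe 6560091, where 12.7% of all were lower. The TGFBR2 values average in the 2 MIA PaCa-2 hairpin groups that were not detected and so rest on a floor. Under median scaling the split of all probes called in that comparison moved from 3023 higher and 3069 lower to 3303 higher and 934 lower, and the same 3 probes were called in the same directions. The mean of the 4 pairs for TGFBR2 rested on MIA PaCa-2, since the mean change in Capan-1 was 0.01 on probe 5490070. The interaction with the cell line called the same 3 probes, against 14.4% of all. The hairpins differed from each other for 2 probes in MIA PaCa-2 (22.6% of all) and 3 in Capan-1 (11.3% of all), and the lines with shCtrl differed for 6 of the 8 probes, against 42.1% of all.

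The other receptors and receptor regulators of the pathway were followed in a list of 22 genes, of which 19 genes with 26 probes were tested. In MIA PaCa-2, 5 of these probes rose and 0 fell with sh1209, with a median log2 change of 0.12 beside 0.01 over all probes, and 6 rose and 2 fell with sh1319. In Capan-1, 3 rose and 2 fell with sh1209, and 1 rose and 2 fell with sh1319. Over all probes 9.05%, 12.2%, 8.14% and 6.95% rose and 8.99%, 12.1%, 8.69% and 6.77% fell in these pairs. BAMBI, a pseudoreceptor that lacks a kinase and blocks TGF-beta signaling, rose in MIA PaCa-2 by 3.90 with sh1209 and 3.88 with sh1319 on the log2 scale, from a mean log2 intensity of 5.47. In Capan-1 BAMBI fell with sh1209 (log2 change -0.90), and its change with sh1319 was -0.02. ENG, the co-receptor endoglin, related to TGFBR3, rose by 0.91 and 0.44 in MIA PaCa-2 and was not detected in any Capan-1 array. With shCtrl in MIA PaCa-2, ENG was near the floor, at a mean log2 intensity of 4.87 and detected on 1 of 2 arrays. TGFBRAP1, which binds the receptors, rose by 1.18 with sh1319 in MIA PaCa-2, where 1 of its 2 shCtrl arrays was detected (mean log2 intensity 4.85). In MIA PaCa-2 TGFBR3, ENG and BAMBI were thus higher with both hairpins, while the ligand-binding kinase TGFBR2 was lower. CD109, a further co-receptor of the list, rose there with sh1319 alone (1.57). Its change with sh1209, 0.22, did not pass the test (limma adjusted p = 0.357).

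The list of other SMADs and nuclear cofactors had 35 tested probes of 19 genes. In MIA PaCa-2, 4 rose and 7 fell with sh1209 (median log2 change 0.12, beside 0.01 over all probes) and 3 rose and 4 fell with sh1319 (median -0.07, beside -0.01), and in Capan-1 2 rose and 0 fell with each hairpin. Under median scaling the counts for sh1209 in MIA PaCa-2 were 3 higher and 2 lower, so that the excess of lower probes did not hold. TGIF1 and TRIM33 each gave more than 1 of the 7 probes that fell in that pair. Over all probes 9.05% rose and 8.99% fell with sh1209 in MIA PaCa-2, and 12.2% and 12.1% with sh1319. In Capan-1 8.14% of all rose and 8.69% fell with sh1209, and 6.95% and 6.77% with sh1319. CREBBP, a histone acetyltransferase recruited by SMADs, rose by 0.61 with sh1209 in MIA PaCa-2 and by 0.52 and 0.90 with sh1209 and sh1319 in Capan-1, and its change with sh1319 in MIA PaCa-2 was 0.33 (limma adjusted p = 0.0666), all on probe 6840148. The other CREBBP probe, 6560438, was called in none of the pairs (0.02, 0.10, 0.02 and -0.04). The SMAD corepressor TGIF2 rose by 0.64 and 0.52 in MIA PaCa-2 and by 0.65 with sh1319 in Capan-1. Its paralog TGIF1 fell in MIA PaCa-2 on probe 1400379 with both hairpins (-0.70 and -0.61), but its 6 tested probes did not move together. Probes 4210196 and 4260189 fell with sh1209 alone (-0.94 and -0.43), and the other 3 were not called in that line, probe 7160670 reading 0.32 and 0.35. MAP3K7IP1 (TAB1), a partner of the TGF-beta-activated kinase TAK1, rose by 1.06 and 0.54 in MIA PaCa-2, and SMAD5, a SMAD of the BMP branch, fell there on probe 7560367 (-0.83 and -0.41) but was not called on probe 6770553 (-0.32 and 0.11).

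Proteins that hold TGF-beta latent or release it formed a list of 18 genes, of which 13 with 15 probes were tested. The list also held the ligand TGFB3 and the gene TGFB1I1. With sh1209 2 rose and 2 fell in MIA PaCa-2 and 2 rose and 1 fell in Capan-1, and with sh1319 2 rose and 1 fell in each line. The median log2 changes were 0.04 and 0.08 with sh1209 and 0.09 and -0.01 with sh1319, in the order MIA PaCa-2 and Capan-1, and over all probes 6.77% to 12.2% passed in each direction. FURIN, the protease that cuts the TGF-beta precursor, rose in Capan-1 by 0.79 and 0.77 (limma adjusted p = 0.0322 and 0.0409) and was not detected in MIA PaCa-2. With shCtrl in Capan-1, FURIN was near the floor, at a mean log2 intensity of 4.65 and detected on 1 of 2 arrays. LRRC33, which holds latent TGF-beta at the cell surface, rose by 0.70 with sh1209 in MIA PaCa-2 and was at least 2.84-fold lower with sh1319. The ligand TGFB3 rose by 1.42 with sh1209 in MIA PaCa-2 (limma adjusted p = 0.000134). Its change with sh1319 there, -0.40, and those in Capan-1, 0.20 with sh1209 and -0.0035 with sh1319, did not pass the test. Activins and other ligands of the family had 8 tested probes, of which 0 passed with sh1209 in MIA PaCa-2, 2 rose with sh1319 there, 1 rose and 2 fell with sh1209 in Capan-1, and 2 rose with sh1319 in Capan-1, with median log2 changes of -0.03, 0.20, -0.03 and 0.05.

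Transcripts known to rise with TGF-beta, the targets of the pathway, moved differently in the lines. Of 57 tested probes of 35 genes, 7 rose and 12 fell with sh1209 in MIA PaCa-2 (median log2 change -0.05, beside 0.01 over all probes), and 10 rose and 8 fell with sh1319 (median 0.03, beside -0.01). In Capan-1, 23 rose and 2 fell with sh1209 (median 0.18, beside -0.01) and 15 rose and 1 fell with sh1319 (median 0.10, beside 0.00). These are counts of probes and not of genes. Several genes, NEDD9, PLAUR and TPM1 among them, gave more than 1 of the probes that rose with sh1209 in Capan-1. The interaction called 5 of these probes as higher and 16 as lower in MIA PaCa-2 relative to Capan-1, where 14.4% of all probes were called. Over all probes in Capan-1, 8.14% rose and 8.69% fell with sh1209 and 6.95% rose and 6.77% fell with sh1319, and in MIA PaCa-2 9.05% rose and 8.99% fell with sh1209 and 12.2% rose and 12.1% fell with sh1319. Median scaling gave 4 and 9, 10 and 6, 22 and 0, and 16 and 1 probes higher and lower in the 4 pairs, with the median over all probes shifted from 0.00 to 0.11 for sh1319 in Capan-1 and by less than 0.10 in the other pairs. All probes called in Capan-1 were then mostly higher too, with 2009 higher and 450 lower for sh1209 and 1936 higher and 334 lower for sh1319, and in MIA PaCa-2 they split into 1142 higher and 1101 lower and 2562 higher and 1284 lower.

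CTGF, a matricellular protein, and PMEPA1, a membrane protein that binds SMADs and limits their signaling, went in opposite directions in the lines. CTGF fell in MIA PaCa-2, with log2 changes of -2.78 for sh1209 and -2.10 for sh1319, and rose by 1.49 with sh1209 in Capan-1, with a change of 0.24 for sh1319 that did not pass the test. Its second probe, 2640292, changed by -1.65 and -1.10 in MIA PaCa-2 and by 0.95 and 0.39 in Capan-1. PMEPA1 was at least 2.25-fold lower with sh1209 in MIA PaCa-2, fell with sh1319 there (-0.84), and rose by 1.95 and 1.58 in Capan-1, with like values on probe 3830041 (-1.43, -0.91, 1.81 and 1.25) but not on probe 2810138 (-0.11, 0.15, 0.16 and -0.06). IGFBP3, a binding protein of insulin-like growth factors, rose by 1.80 and 1.81 in Capan-1 on probe 6840372, which was not detected in MIA PaCa-2, and by 2.05 and 1.85 on probe 6590132.

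Collagen and contractile genes of the same list did not move as a group in MIA PaCa-2. COL1A2, a chain of type I collagen, rose by 2.97 with sh1209 and 4.31 with sh1319 on probe 6060612, and by 2.69 and 3.59 on probe 4040671, and probe 6060612 was not detected in Capan-1. COL4A1, a basement membrane collagen, rose by 0.62 and 0.72, whereas COL4A2 (-0.01 and 0.14) and COL5A1 (0.29 and 0.00) did not pass the test. TAGLN, an actin-binding protein, fell with sh1209 (-0.82 and -0.60 on its probes) and rose with sh1319 (1.64 and 1.85). ACTA2, smooth muscle actin, rose in MIA PaCa-2 by at least 2.04-fold (sh1209) and at least 5.47-fold (sh1319), and rose by 0.44 and 0.55 in Capan-1. TPM1, a tropomyosin, rose by 2.25 with sh1319 in MIA PaCa-2 and by 0.86 and 0.53 in Capan-1 on probe 5560246, its change of 0.23 with sh1209 in MIA PaCa-2 did not pass the test, and probe 1010482 was called only with sh1209 in Capan-1 (0.40). Fibroblasts express such genes too: the summed intensity of 11 fibroblast and stellate cell marker probes was 938.1 to 949.3 with shCtrl, 1097.4 to 1202.8 with sh1209 and 1162.4 to 1334.9 with sh1319 in MIA PaCa-2. Of these probes 0, 2 and 2 were detected on both arrays of the group, those of ACTA2 and COL3A1, while PDGFRA, PDGFRB, FAP and LUM were not detected on any MIA PaCa-2 array. Other markers moved in the same pairs. The summed intensity of 7 epithelial marker probes in MIA PaCa-2 was 2380.4 to 2505.7 with shCtrl, 1794.7 to 1987.7 with sh1209 and 1473.3 to 1630.6 with sh1319. There KRT19 changed by -1.44 and -1.47, and with sh1319 KRT8 changed by -1.09 and KRT18 by -0.80 on probe 110431. KRT7 rose there by 0.43 with sh1319, and CDH1, EPCAM and the other KRT18 probe, 6280128, were not called in MIA PaCa-2. In Capan-1 the leukocyte list's LYZ, also a secretory epithelial product, fell on both probes (-1.29 and -1.83 with sh1209, -0.56 and -1.53 with sh1319). CD68 and CD14 were not called there. The mesenchymal marker CDH2 rose by 0.75 and 1.29 in Capan-1, VIM was called only with sh1319 on probe 830593 (0.47), and SPARC was not called. Of the epithelial markers, CDH1 rose with sh1209 (0.63), KRT7 fell with both hairpins (-0.40 and -0.54), and KRT8, KRT18, KRT19 and EPCAM were not called. The part of these markers in the results for the TGF-beta genes was not tested.

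**Figure D4:**
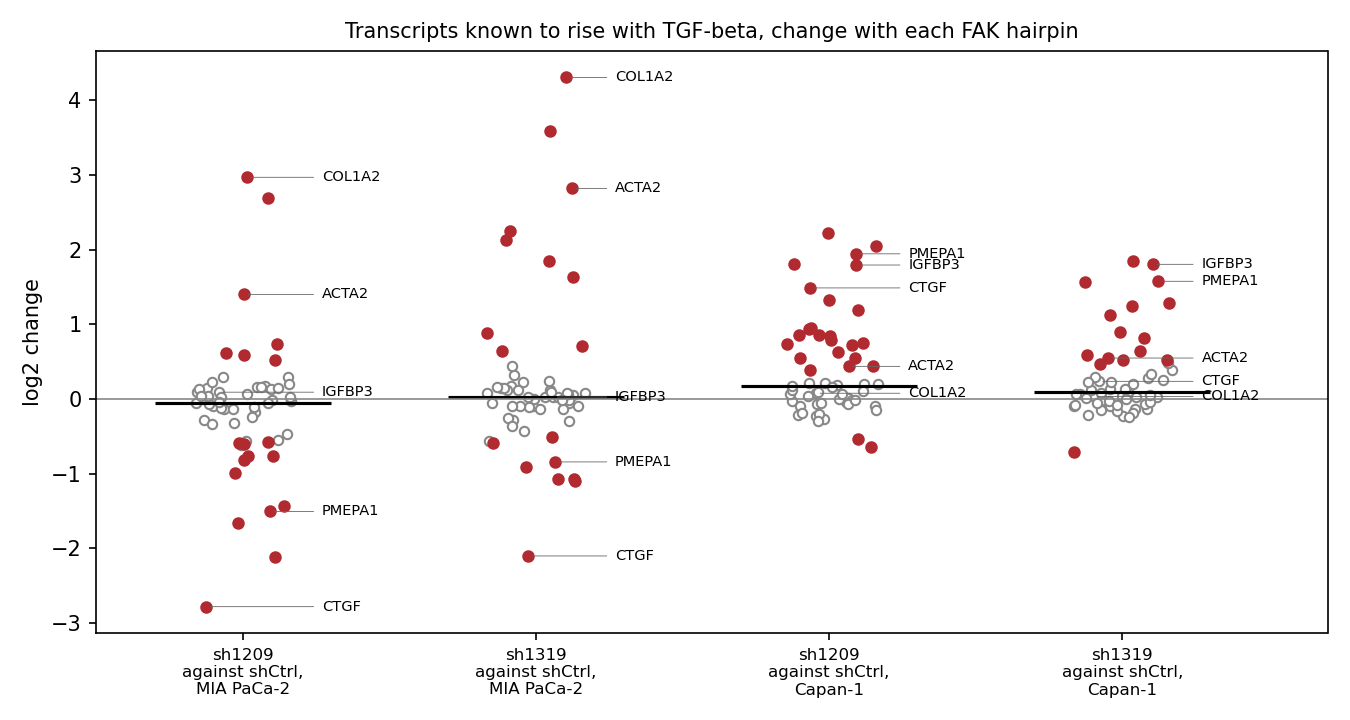
Log2 change (y axis) of the 57 tested probes of transcripts known to rise with TGF-beta, for the 4 pairs of a FAK hairpin and shCtrl (x axis). Each point is 1 probe, filled points passed an adjusted p of 0.05, and black lines are medians; filled points lie on both sides of 0 in MIA PaCa-2, with CTGF at -2.78 and -2.10 and COL1A2 at 2.97 and 4.31, and nearly all lie above 0 in Capan-1.

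The transcripts most like TGFBR3 over the 12 arrays, once the mean of each cell line was subtracted, were MORF4L2 (Pearson r = 0.982), TCEAL8 (0.974) and the Polycomb protein CBX6 (0.973). Those most like TGFBR2 were AIF1L (0.989), ATF4 (0.986) and HMSD (0.986). These correlations describe arrays that share their groups. CBX6 changed by 1.37, 2.35, 0.03 and 1.23 in the order sh1209 and sh1319 in MIA PaCa-2, then sh1209 and sh1319 in Capan-1, and AIF1L by -1.99, -1.78, -0.18 and 0.21. CBX6 had the order of the pairs seen for TGFBR3, and AIF1L, like TGFBR2, changed in MIA PaCa-2 far more than in the other line. Both were picked for their likeness to these genes over the same arrays. The like pattern therefore follows from the choice and adds no separate support.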

How the data were processed

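RNA of 12 samples was measured on 12 arrays of 1 chip. The authors deposited for each probe a linear intensity and a detection p-value, neither normalized nor background-subtracted; the submitters' processing notes name GenomeStudio 2011.1. The table has 47320 rows, with 92 spike-in rows that entered the background correction alone, and 28 columns without values.

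The nec function of limma (normexp from the detection p-values, offset 16) removed background, and log2 values were quantile-normalized. This lifts small differences near background. Testing was limited to probes detected (p under 0.05) on 2 or more arrays, 24207 of 47228. limma 3.58.1 in R 4.3.3 fitted a mean for each of the 6 groups (6 residual degrees of freedom), with Benjamini-Hochberg adjustment inside each of 9 comparisons; adjusted p under 0.05 was called. The fit was checked on simulated arrays. With only 2 arrays a group, their number sets the precision.

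Where a probe was detected on no array of a group, the fold is a lower bound against the lowest detected normalized signal of those arrays. A p-value beside such a bound is that of the measured change. Members and gene lists were chosen with earlier results of these data known. Text names every member, PTK2, from each pathway list up to 4 genes with the largest combined change of 1 sign in all pairs and up to 2 with the largest interaction, and the 3 transcripts most like each of up to 3 members called in the combined comparison. Further probes of named list genes, and TGFB3, CD109, TRIM33, COL4A1, COL4A2, COL5A1, TAGLN and marker genes, were added after their values were seen. Promoter runs and coordinates are RefSeq's for GRCh38.p14; genes carry the table's own names, which are dates in 54 rows. Alternatives covered background correction, scaling, filters, replicate block, array weights, 1 line alone, the methods' t-test, averaged replicates and each array left out.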

Additional observations from a re-analysis of the deposited data

Results flagged for a closer look

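The mean change with the hairpins differed between MIA PaCa-2 and Capan-1, by the interaction term of the limma fit, for 3 member probes and for PTK2. The differences, MIA PaCa-2 minus Capan-1 on the log2 scale, were 2.71 for TGFBR3 (adjusted p = 1.22e-06), -2.07 and -1.51 for TGFBR2 on probes 5490070 and 6560091 (adjusted p = 2.70e-06 and 0.000236), and -1.17 for PTK2 on probe 450253 (adjusted p = 0.000213).

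Among receptors and their regulators the difference was 4.35 for BAMBI, 1.19 for TGFBRAP1 and 0.62 for ENG. Among SMADs, cofactors and latency proteins it was 0.71 for MAP3K7IP1, -0.92 for TGIF1, -0.74 for SMAD5 and -0.51 for LRRC33. Among transcripts known to rise with TGF-beta it was 3.58 for COL1A2, 1.62 for ACTA2, 0.55 for TPM1, -1.74 for IGFBP3, -3.30 for CTGF and -2.93 for PMEPA1. ENG, LRRC33 and COL1A2 were not detected in Capan-1 and IGFBP3 was not detected in MIA PaCa-2. In MIA PaCa-2, TGFBR2 was not detected with either FAK hairpin, ACTA2 with shCtrl, PMEPA1 with sh1209 or LRRC33 with sh1319. ENG and TGFBRAP1 with shCtrl in MIA PaCa-2, and TGFBRAP1 with sh1319 in Capan-1, were detected on 1 of 2 arrays. The differences given for these genes rest in part on values at or near a floor, and their sizes are not exact.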

How the results depend on the processing

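Probe and comparison pairs of the members and PTK2 that were called at any setting, 48 in all, were followed. The methods' t-test and averaged replicates were not among the settings for these pairs. Of 590 recomputed values, 547 kept their side of the threshold, 24 lost the call and 19 gained one. A turn of direction was counted only where the main or the recomputed value was called, and there were 0. The number of member probes called fell to 0 by the methods' t-test after adjustment for each hairpin against shCtrl in both lines and for both hairpin differences, while at an unadjusted p under the threshold it called 4, 5, 2 and 2 probes in the 4 pairs and 3 and 2 for the hairpin differences. That test called 1, 4, 0, 0, 1 and 2 of all 24207 probes in the same order after adjustment, and 4613, 5646, 4935 and 4393 in the 4 pairs without it, so that its 0 says nothing particular to these genes. With replicates averaged, the combined comparison called 0 of these probes and 0 of all. Without background correction, sh1319 in Capan-1 had 2 calls. Median scaling left 1 call between the hairpins in Capan-1. With each array left out, the calls for sh1209 in Capan-1 ranged from 0 to 2 and those between the hairpins in Capan-1 from 1 to 3.

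After normalisation, replicate numbers showed little pairing of the arrays: over 15 pairs of groups the correlation of deviations was -0.06 to 0.16, with 1 above 0.1. Before it, the median deposited intensity was higher on replicate 2 than on replicate 1 in every group, such as 94.2 and 87.7 for MIA PaCa-2 sh1209. The deposited intensities quoted for single arrays carry that shift. With the replicate block, the TGFBR2 difference between the hairpins in Capan-1 on probe 6560091, 0.52, was no longer called (limma adjusted p = 0.0562), and calls between the hairpins there numbered 2. The causes were not tested. Near background, intensity over background limits what can be seen: 7 of the 15 member probes gave no test.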
